A study of Mus musculus with 48 samples.

Results

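Cyp2j9, Lnx2, Zfp334, Aldh9a1 and Fnbp4 were measured in the liver of male mice that carried 0, 1 or 2 intact copies of Wfs1 and had received valproic acid (VPA) or saline. All 5 stand in the study's list of genes whose response to VPA depended on genotype. A probeset was taken where its only gene symbol in the probe annotation was one of these names, which gave 1 probeset for each gene, 5 of the 35556 probesets on the array. Because that list was drawn from the same 48 mice, the VPA effect within each genotype and its difference between genotypes carry the choice of the genes and are given below as a description, with no test. The same holds for genotype differences within saline mice or within VPA mice. The effect of VPA averaged over the genotypes and the genotype differences averaged over the treatments are orthogonal to an interaction in a balanced design, and these were tested. Their estimates share the residual variance with the interaction that chose the genes. Because such a choice favours a small residual variance, the p-values and counts of these tests are not wholly free of it.

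The groups were KO VPA, KO saline, HZ VPA, HZ saline, WT VPA and WT saline, with 8 mice in each and 1 array per mouse. KO, HZ and WT mice were Wfs1 -/-, Wfs1 +/- and Wfs1 +/+. VPA mice had received valproic acid at 300 mg/kg i.p. each day and saline mice 0.9% saline at 10 mL/kg i.p. each day, for 12 weeks from an age of 4 to 6 weeks. The liver was taken at an age of 16 to 18 weeks, on the day after a glucose tolerance test that every group underwent. The last VPA injection was given on the day before that test, so the livers were taken after dosing had stopped. The study names it as possible that effects of the drug returned to normal in that time. The mutation takes out a pair of exons and leaves the rest of Wfs1 in place, and the Wfs1 probeset had group means of 8.28 to 8.48 on the log2 scale, so it does not check the genotype labels. The strain background is not given in the sources used here.

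Wolframin, the product of Wfs1, is a membrane protein of the endoplasmic reticulum, and its loss causes Wolfram syndrome, with diabetes and loss of neurons. VPA is an antiepileptic drug and mood stabilizer that inhibits histone deacetylases and is broken down in the liver, in part along the route of fatty acid oxidation. Cyp2j9 is a cytochrome P450 of the Cyp2j family, enzymes that oxidize arachidonic acid and related fatty acids. Lnx2 is a RING-type ubiquitin ligase with PDZ domains that binds Numb, an inhibitor of Notch signalling. Zfp334 is a zinc finger protein of the large Zfp family. Aldh9a1 is the aldehyde dehydrogenase that makes gamma-butyrobetaine, the precursor of carnitine, from its aldehyde, and also oxidizes aminobutyraldehyde to GABA. Fnbp4 is a WW domain protein that binds formins.

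The promoters of Lnx2 and Fnbp4 are shown because these genes ranked first and second of the 5 in the test of the averaged VPA effect. They run from 250 bases before to 50 bases after the annotated start and were taken from RefSeq on GRCm38.p6, where all 5 genes had an entry. Capitals mark the letters CCAAT, read on either strand, so that a match on the opposite strand appears as ATTGG. Lnx2 lies on the minus strand (chr5:147076523-147076822) and Fnbp4 on the plus strand (chr2:90745308-90745607).
Lnx2: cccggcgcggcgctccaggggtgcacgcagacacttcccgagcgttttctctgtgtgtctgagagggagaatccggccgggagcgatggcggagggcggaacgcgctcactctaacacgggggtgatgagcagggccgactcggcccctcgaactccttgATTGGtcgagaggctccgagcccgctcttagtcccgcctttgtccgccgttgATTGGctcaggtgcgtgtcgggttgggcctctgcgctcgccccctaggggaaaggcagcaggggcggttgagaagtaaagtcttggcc
Fnbp4: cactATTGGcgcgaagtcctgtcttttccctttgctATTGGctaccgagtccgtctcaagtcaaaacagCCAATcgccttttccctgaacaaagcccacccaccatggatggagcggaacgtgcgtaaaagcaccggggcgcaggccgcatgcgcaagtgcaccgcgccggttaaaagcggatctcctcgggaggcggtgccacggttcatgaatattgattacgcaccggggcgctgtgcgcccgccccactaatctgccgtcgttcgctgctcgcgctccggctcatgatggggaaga
The Lnx2 window held 2 such matches and the Fnbp4 window 3, and those of Cyp2j9, Aldh9a1 and Zfp334 held 1, 1 and 0. Of 32851 promoter windows of the same length, 37.4% held at least 1, 11.7% at least 2 and 3.37% at least 3. The GC box letters GGGCGG occurred in the windows of Lnx2, with 2 matches, and Fnbp4, with 1, against 35.7% of all windows with at least 1. None of the 5 windows held the E-box CACGTG, which 7.15% of all windows held, the D-box TTANGTAA (2.32%), the RORE core AGGTCA (16.3%) or the cAMP response element TGACGTCA (1.79%), all read on both strands. A CCAAT match shared no bases with a GC box match in these windows.

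Lnx2 (probeset 10535759, chromosome 5) was the gene of the 5 with higher values under VPA in HZ and WT livers and level values in KO livers. Its log2 value was 8.55 at the lowest, 8.68 at the median and 8.87 at the highest in KO VPA mice, against 8.39, 8.73 and 8.97 in KO saline mice. In HZ mice the lowest, median and highest values were 8.66, 8.87 and 9.16 with VPA, against 8.37, 8.51 and 8.64 with saline. In WT mice they were 8.71, 9.01 and 9.23 with VPA, against 8.51, 8.58 and 8.78 with saline. All 8 HZ VPA mice therefore lay above every HZ saline mouse and 7 of 8 WT VPA mice above every WT saline mouse, while the KO groups overlapped, with 4 of 8 KO VPA mice above the KO saline mean and 4 below it. Across the array, all HZ VPA mice lay above all HZ saline mice for 0.883% of the probesets. The VPA minus saline difference was -0.0047 in KO (SE 0.078), 0.38 in HZ (SE 0.078) and 0.40 in WT mice (SE 0.078), that is 1.30-fold in HZ and 1.32-fold in WT mice. The effect in KO was smaller by 0.40 than in WT (SE 0.11), and that in HZ differed from that in WT by -0.017 (SE 0.11). No pair of neighbours in the order of the 6 group means differed by more than 1 pooled SD. The ends of the order were 9.01 ± 0.16 in WT VPA and 8.51 ± 0.11 in HZ saline mice (SD, n = 8 each).

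Cyp2j9 (probeset 10514520, chromosome 4) was highest in KO saline livers. It had a lowest, median and highest log2 value of 8.58, 9.04 and 9.51 in KO VPA mice, against 8.82, 9.43 and 10.01 in KO saline mice. In HZ mice these were 8.72, 9.01 and 9.28 with VPA, against 8.42, 8.69 and 9.21 with saline, and in WT mice 8.93, 9.13 and 9.22 with VPA, against 7.69, 8.88 and 9.14 with saline. VPA mice lay below the saline mean in 7 of 8 cases in KO, above it in 7 of 8 in HZ and above it in all 8 in WT, but in each genotype the ranges of the treatments overlapped. The VPA minus saline difference was -0.33 in KO, 0.26 in HZ and 0.43 in WT mice (SE 0.15 each). With VPA the group means came together, at 9.02 ± 0.29 in KO, 9.00 ± 0.20 in HZ and 9.12 ± 0.10 in WT mice, whereas with saline they were 9.35 ± 0.41 in KO, 8.74 ± 0.26 in HZ and 8.69 ± 0.48 in WT mice (SD, n = 8 each). The spread in WT saline mice rested on replicate 7, at 7.69, and replicate 6, at 8.24, with the other 6 mice between 8.79 and 9.14. In the order of the means only HZ VPA and HZ saline stood next to each other and more than 1 pooled SD apart.

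Zfp334 (probeset 10489694, chromosome 2) was likewise highest in KO saline livers. Its lowest, median and highest log2 values were 6.74, 6.95 and 7.11 in KO VPA mice, against 6.80, 7.12 and 7.39 in KO saline mice. They were 6.79, 6.96 and 7.15 in HZ VPA mice, against 6.62, 6.94 and 7.09 in HZ saline mice, and 6.78, 6.94 and 7.07 in WT VPA mice, against 6.71, 6.81 and 6.95 in WT saline mice. All 8 KO VPA mice lay below the KO saline mean, and 7 of 8 KO saline mice lay above every WT saline mouse, the exception being replicate 3 at 6.80. The difference with VPA was -0.22 in KO, 0.065 in HZ and 0.098 in WT mice (SE 0.069 each). KO saline, at 7.15 ± 0.19, was more than 1 pooled SD above the next mean, 6.97 ± 0.13 in HZ VPA mice, and the other 5 groups lay between 6.83 and 6.97 with no neighbours that far apart.

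Fnbp4 (probeset 10473690, chromosome 2) was also highest in KO saline livers, and its residual SD of 0.095 was the smallest of the 5 genes. Its lowest, median and highest log2 values were 8.69, 8.81 and 8.94 in KO VPA mice, against 8.86, 9.07 and 9.19 in KO saline mice. In HZ mice they were 8.67, 8.84 and 8.96 with VPA, against 8.79, 8.83 and 9.06 with saline, and in WT mice 8.79, 8.83 and 8.99 with VPA, against 8.67, 8.89 and 9.00 with saline. All 8 KO VPA mice lay below the KO saline mean and 5 of them below every KO saline mouse. By the same measure, 3 of 8 HZ VPA mice lay below every HZ saline mouse, and 0 of 8 WT VPA mice below every WT saline mouse. The ranges of the treatments overlapped in each genotype. VPA minus saline was -0.23 in KO, -0.024 in HZ and -0.0033 in WT mice (SE 0.051 each). KO saline, at 9.05 ± 0.11, stood more than 1 pooled SD above the next mean, 8.87 ± 0.10 in WT saline mice (SD, n = 8 each).

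Aldh9a1 (probeset 10351414, chromosome 1) ran the other way and was lowest in KO saline livers. It had a lowest, median and highest log2 value of 12.11, 12.20 and 12.38 in KO VPA mice, against 11.79, 11.99 and 12.18 in KO saline mice. These were 11.93, 12.19 and 12.36 in HZ VPA mice, against 12.03, 12.18 and 12.39 in HZ saline mice, and 12.03, 12.17 and 12.43 in WT VPA mice, against 12.14, 12.28 and 12.42 in WT saline mice. All 8 KO VPA mice lay above the KO saline mean and 5 above every KO saline mouse, and 6 of 8 KO saline mice lay below every WT saline mouse. VPA minus saline was 0.20 in KO, -0.040 in HZ and -0.077 in WT mice (SE 0.061 each). KO saline, at 12.01 ± 0.14, was more than 1 pooled SD below the next mean, 12.17 ± 0.13 in HZ VPA mice, and the other 5 means lay between 12.17 and 12.28.

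**Figure D1:**
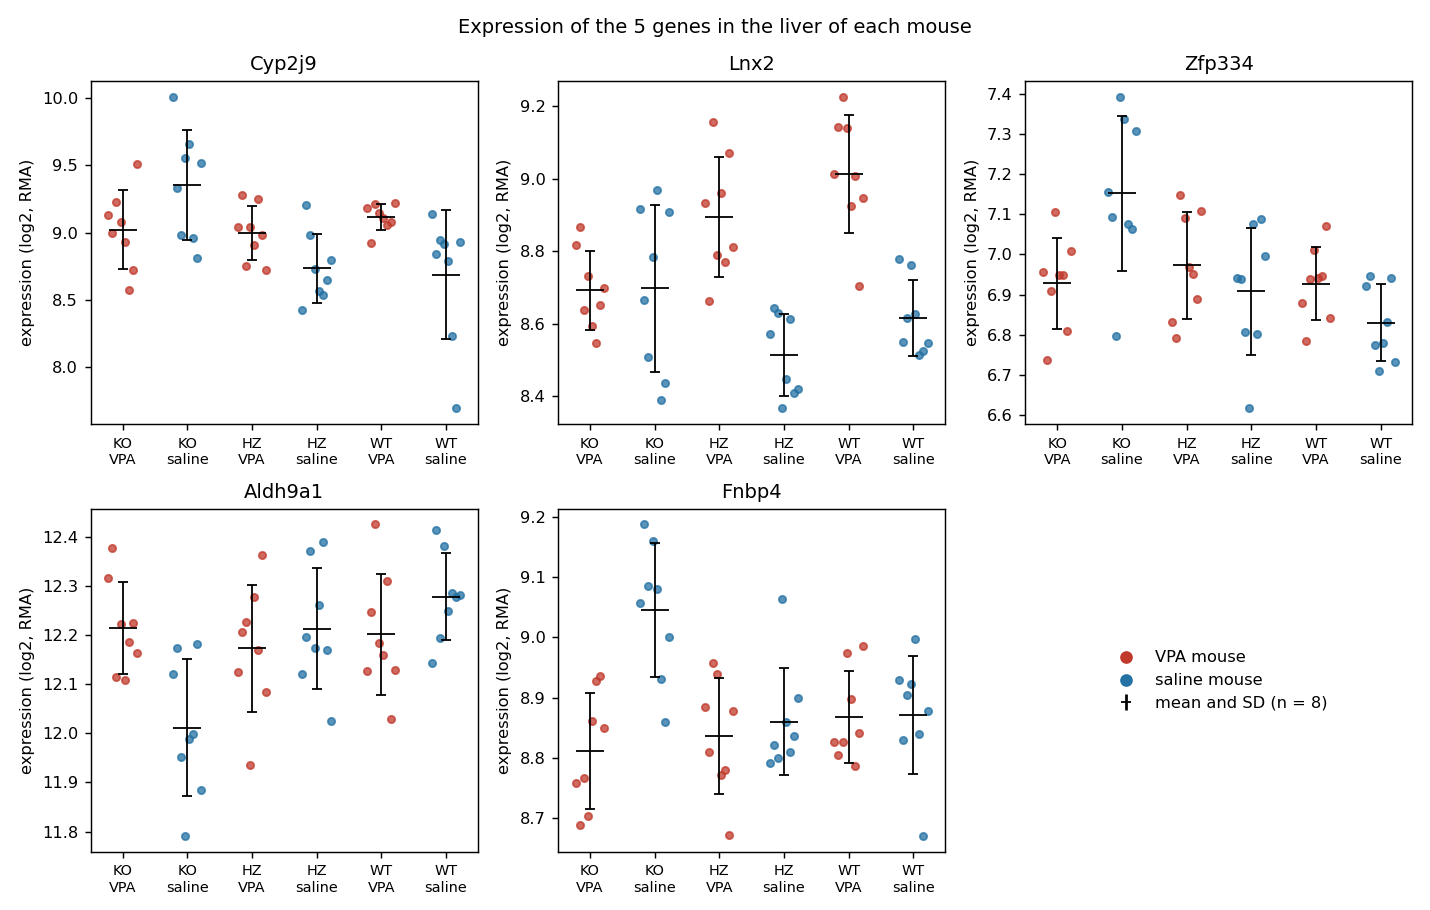
Log2 expression after RMA (y axis) of each gene in each mouse, with VPA mice in red, saline mice in blue, and the mean and SD of the 8 mice of a group as black bars. Lnx2 was raised in HZ VPA and WT VPA mice, and KO saline mice had the highest mean of Cyp2j9 (9.35), Zfp334 (7.15) and Fnbp4 (9.05) and the lowest of Aldh9a1 (12.01).

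The 5 genes thus took 2 shapes, which are a description. The gap between the KO minus WT differences in saline and in VPA mice belongs to the interaction that chose the genes. Such shapes are therefore partly built in. For Cyp2j9, Zfp334, Fnbp4 and Aldh9a1 KO saline mice stood apart from the saline mice of the other genotypes, while the VPA mice of the 3 genotypes had similar means. KO saline minus WT saline was 0.67 for Cyp2j9, 0.32 for Zfp334, 0.17 for Fnbp4 and -0.27 for Aldh9a1. KO VPA minus WT VPA was -0.095 for Cyp2j9, 0.0014 for Zfp334, -0.057 for Fnbp4 and 0.012 for Aldh9a1. For Lnx2 it was the KO VPA mice that stood apart, with a difference of -0.32 between KO VPA and WT VPA mice and of 0.083 between KO saline and WT saline mice. In Cyp2j9, Zfp334, Fnbp4 and Aldh9a1 the VPA effect in KO had the opposite sign to that in WT, except for Fnbp4, whose effect in WT was -0.0033. Cyp2j9 differed from the other members of this shape. Its VPA effects in HZ (0.26) and WT (0.43) were of a size with that in KO (-0.33), and its KO saline mean lay within 1 pooled SD of the WT VPA mean. The interaction took 17.6% of the variance of Lnx2, 19.3% of Cyp2j9, 20.2% of Zfp334, 19.9% of Fnbp4 and 20.3% of Aldh9a1, and treatment took 34.0% of that of Lnx2 and between 0.419% and 13.9% of the others.

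The two-way F of the interaction over all genotypes was 8.74 for Lnx2, 7.22 for Fnbp4, 6.82 for Zfp334, 6.66 for Aldh9a1 and 6.42 for Cyp2j9. These were ranks 135, 279, 331, 367 and 414 of 35556 in the deposited values. In this F, an unadjusted p of 0.003, the cutoff that the study names, corresponds to 6.69, which 1.01% of the probesets exceeded. Zfp334 lay just above 6.69, and Aldh9a1 and Cyp2j9 lay below it. For Ppard the study's listed p differs from the p it gives with its own interaction F, so its list need not rest on this F. These places therefore do not show which genes met the study's limit. Which contrast of the interaction the study's listed p refers to is not given in the sources used here. Other genes of that list were larger in size. Nuclear receptor gene Ppard differed between VPA and saline by 0.18 in KO, 0.69 in HZ and 1.099 in WT mice (SE 0.15 each), and the clock genes Nfil3, by 0.25, 1.13 and 0.93 (SE 0.13), and Nr1d2, by -0.17, -1.03 and -0.88 (SE 0.12), in the same order of genotypes. Lnx2 shared with these 3 the small effect in KO, with smaller effects than theirs in WT and HZ mice, while from the group means the effects of Zfp334, Aldh9a1 and Fnbp4 were larger in size in KO than in HZ or WT mice, which for Zfp334 did not hold with a clock index as a covariate.

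**Figure D2:**
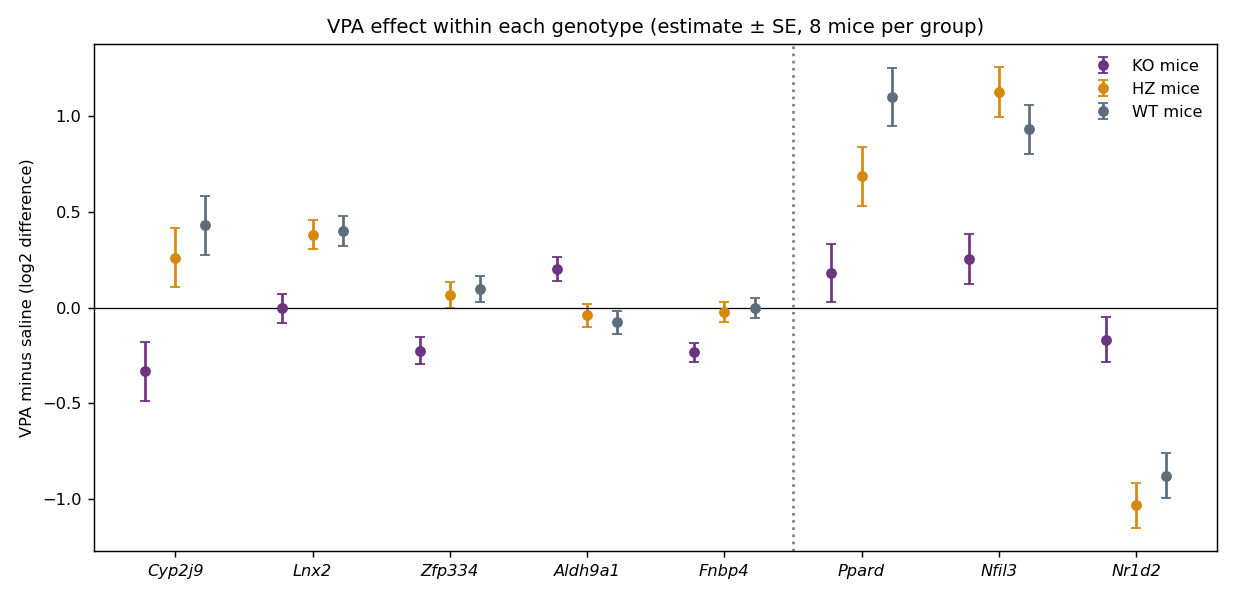
VPA minus saline (y axis, log2 difference ± SE) in KO, HZ and WT mice for the 5 genes, left of the dotted line, and for Ppard, Nfil3 and Nr1d2 of the same list, right of it. Lnx2 was at -0.0047 in KO, 0.38 in HZ and 0.40 in WT mice, and Zfp334, Fnbp4 and Aldh9a1 had group means that differed more in KO than in HZ or WT mice (-0.22, -0.23 and 0.20).

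Averaged over the 3 genotypes, 1 of the 5 genes passed the test for VPA, read against 8.61% of all probesets at an adjusted p under 0.05 (4.01% higher and 4.6% lower). Lnx2 was raised, at a difference of 0.26 (SE 0.045, limma adjusted p = 0.000145), and its value exceeded the mean of saline mice of the same genotype in 20 of 24 VPA mice. Fnbp4 differed by -0.087 (SE 0.030, adjusted p = 0.0556), with 17 of 24 VPA mice below, which did not pass. Cyp2j9 differed by 0.12 (SE 0.089, adjusted p = 0.399), Aldh9a1 by 0.029 (SE 0.035, adjusted p = 0.641) and Zfp334 by -0.021 (SE 0.040, adjusted p = 0.777), with 95% intervals of -0.059 to 0.30, -0.043 to 0.10 and -0.10 to 0.060. At an unadjusted p under 0.05, 2 of the 5 were called, read against 26.1% of all probesets at that limit. The median difference over all probesets was -0.016. With KO and WT mice alone, the rise of Lnx2 was 0.20 and did not pass (adjusted p = 0.170). That average leaves out HZ mice and is not orthogonal to the interaction that chose the genes.

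For KO minus WT averaged over the treatments, 0 of the 5 passed in limma, where 2.94% of all probesets did (1.37% higher and 1.57% lower). Zfp334 was the nearest, at 0.16 (SE 0.049, adjusted p = 0.0576), with 12 of 16 KO mice above the WT mean of their treatment. Aldh9a1 was at -0.13 (SE 0.043, adjusted p = 0.110), with 12 of 16 below, Cyp2j9 at 0.29 (SE 0.11, adjusted p = 0.174), Lnx2 at -0.12 (SE 0.055, adjusted p = 0.313) and Fnbp4 at 0.059 (SE 0.036, adjusted p = 0.526). At an unadjusted p under 0.05, 4 of the 5 were called, where 13.6% of all probesets were, and without moderation of the variances 0 passed. For HZ minus WT, 0 of 5 passed, with adjusted p from 0.911 to 0.999, against 0.00281% of all probesets (1 probeset), and 0 were called at an unadjusted p under 0.05 (5.4% of all probesets). For KO minus HZ, 0 of 5 passed, against 1.44% of all probesets, and 3 were called at an unadjusted p under 0.05 (9.76% of all probesets), with the widest difference in Cyp2j9 (0.32, SE 0.11, adjusted p = 0.165). The 95% interval of KO minus WT ran from 0.068 to 0.51 for Cyp2j9 and from 0.064 to 0.26 for Zfp334, so a p that missed the threshold does not show that the genotypes were alike.

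**Figure D3:**
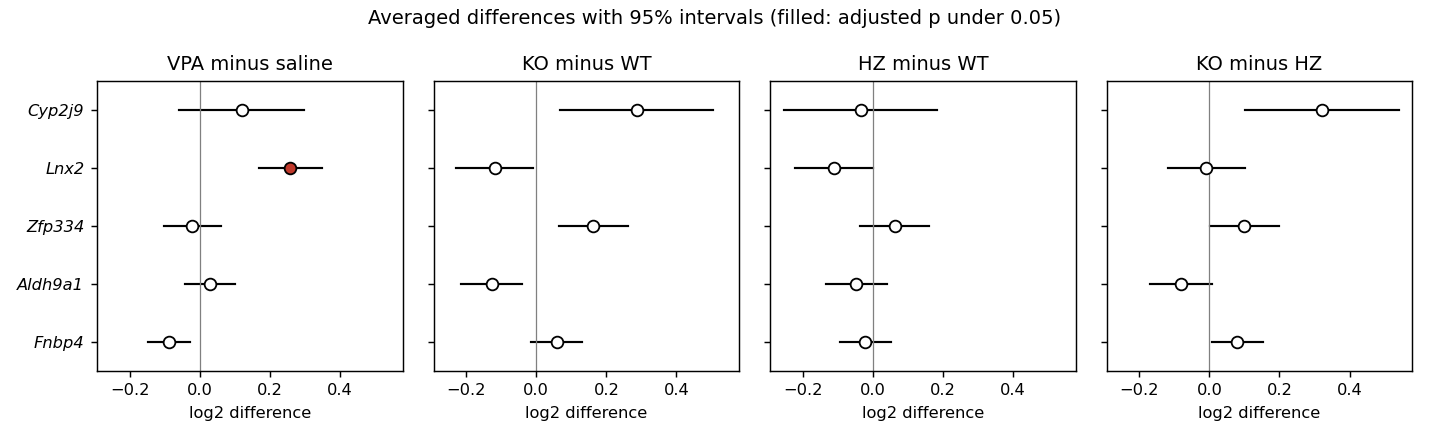
Log2 difference (x axis) with its 95% interval for each gene, in VPA minus saline averaged over genotypes and in KO minus WT, HZ minus WT and KO minus HZ averaged over treatments. Lnx2 in VPA minus saline (0.26) is the only filled point, the one with an adjusted p under 0.05.

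Values of clock genes were set beside those of the 5 genes. A clock index was made from 11 of 12 listed clock genes as the mean of their z scores over the 48 mice, counted as positive for Arntl and Clock and as negative for Dbp, Tef, Hlf, Per1, Per2, Per3, Nr1d1, Ciart and Bhlhe41. Its lowest, median and highest values were -0.75, -0.28 and 0.58 in KO VPA mice, against -1.03, -0.61 and -0.14 in KO saline mice. In HZ mice they were 0.55, 1.00 and 1.28 with VPA, against -1.58, -1.11 and -0.75 with saline, and in WT mice 0.74, 1.09 and 1.46 with VPA, against -0.71, -0.31 and 0.80 with saline. HZ VPA and HZ saline mice did not overlap in it, while the ranges of VPA and saline mice overlapped in WT and in KO. Its mean was -0.082 in KO VPA and -0.59 in KO saline mice, where Lnx2 differed by -0.0047. With the index as a covariate the averaged difference of Lnx2 was 0.17 (SE 0.091, limma adjusted p = 0.667), no longer past the test. Without the index its SE was 0.045, so a wider SE as well as a smaller estimate went into the lost call. Because the index moved with treatment, the 2 cannot be fully told apart in this fit. The averaged difference with the index is also not orthogonal to the interaction that chose the genes. The differences of Lnx2 were then -0.041 in KO (SE 0.084), 0.24 in HZ (SE 0.15) and 0.31 in WT mice (SE 0.11). Those of Cyp2j9 were -0.49 in KO (SE 0.16), -0.36 in HZ (SE 0.28) and 0.057 in WT mice (SE 0.20), so that the effects in HZ and WT mice lost their size or turned. For Zfp334 they were -0.18 in KO (SE 0.073), 0.27 in HZ (SE 0.13) and 0.22 in WT mice (SE 0.096), so that the differences in HZ and WT, 0.065 and 0.098 without the index, were then larger in size than that in KO. For Aldh9a1 they were 0.20, -0.050 and -0.083 in KO, HZ and WT mice, and for Fnbp4 -0.21, 0.087 and 0.063. The part of the clock in these values was not tested.

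**Figure D4:**
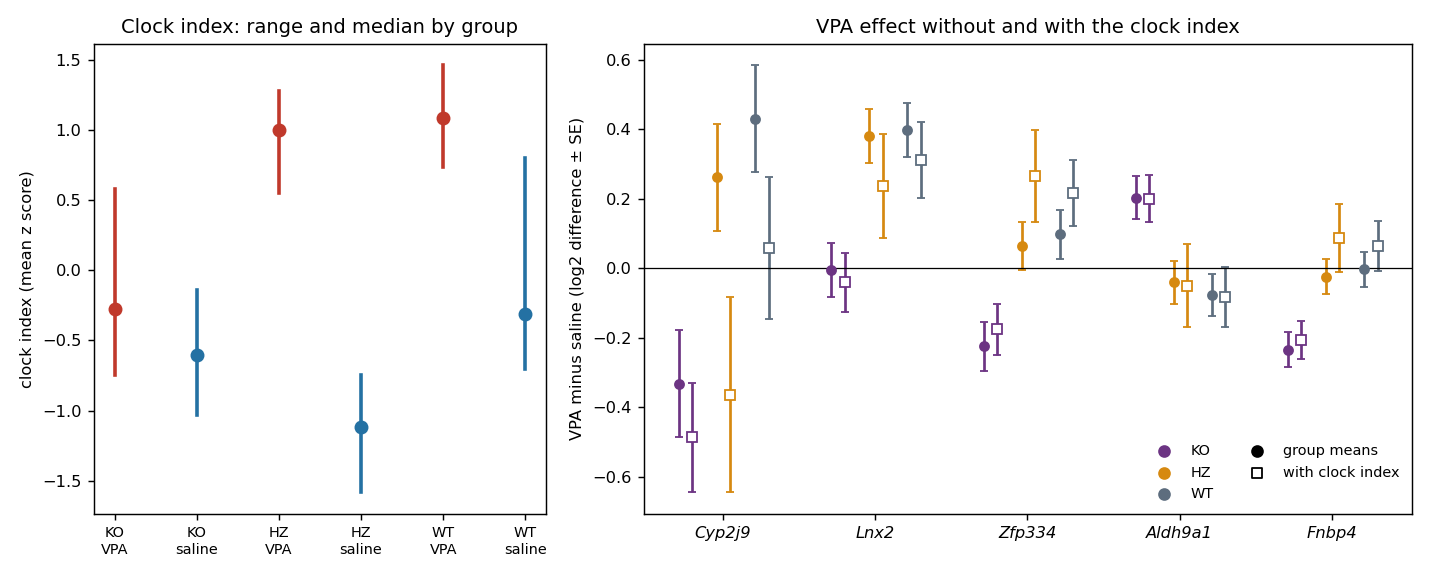
Left, range and median of the clock index (y axis, mean z score) in the 8 mice of each group. Right, VPA minus saline (y axis, log2 difference ± SE) by genotype from the group means (filled) and with the clock index as a covariate (open), where the effect of Cyp2j9 in HZ mice was 0.26 in the first fit and -0.36 in the second and that of Aldh9a1 in KO mice was 0.20 in both.

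The 8 KO saline mice, which had the highest or lowest mean in 4 of the 5 genes, were uneven. Cyp2j9 had its 4 highest values there in replicates 1, 4, 5 and 8 (10.01, 9.55, 9.66 and 9.52). Lnx2 had its 4 highest values in the same 4 mice (8.92, 8.78, 8.97 and 8.91), the other 4 lying between 8.39 and 8.67. Zfp334 was also highest in these 4, at 7.16, 7.39, 7.34 and 7.31. By contrast, Aldh9a1 had its highest value in replicate 7 (12.18) and Fnbp4 in replicate 2 (9.19). This grouping was noticed in the values and is given as a description. Over all 48 mice and with the group means removed, the correlation across mice was 0.412 between Cyp2j9 and Lnx2, 0.076 between Cyp2j9 and Zfp334, 0.196 between Lnx2 and Zfp334, and -0.400 between Aldh9a1 and Fnbp4. These mice share 1 normalization, and no p is given for them.

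Among markers of other cells, the only measured gene of the erythroid list, Alas2, which makes the first step of haem synthesis in erythroid cells, was lower in KO than in WT mice (past the test averaged over treatments). It had a lowest, median and highest log2 value of 8.49, 10.15 and 10.66 in KO VPA mice, against 8.15, 9.25 and 10.17 in KO saline mice, and medians from 10.62 to 10.83 in the other 4 groups. VPA raised 3 of 7 Kupffer cell markers, 3 of 6 markers of sinusoidal endothelium and 2 of 6 stellate cell markers, with 1 stellate marker lower. Over all probesets, 4.01% were higher and 4.6% lower with VPA, and 2.94% passed for KO minus WT. The log2 of the summed Kupffer markers ran from 12.25 to 12.81 in HZ VPA mice, against 11.36 to 12.38 in HZ saline mice, from 11.23 to 12.95 in WT VPA, against 11.32 to 12.66 in WT saline mice, and from 12.02 to 12.70 in KO VPA, against 11.69 to 12.68 in KO saline mice. The endothelial sum ran from 12.61 to 12.89 in HZ VPA, against 12.04 to 12.49 in HZ saline mice, so these did not overlap. It ran from 12.33 to 13.11 in WT VPA, against 12.38 to 12.89 in WT saline mice, and from 12.59 to 12.92 in KO VPA, against 12.58 to 13.06 in KO saline mice, and these overlapped. In KO mice none of the hepatocyte, Kupffer, endothelial, stellate, lymphocyte, neutrophil or adipocyte markers passed against WT, and 1 of 5 cholangiocyte and 1 of 4 pancreas markers were lower. For VPA, 1 of 5 hepatocyte and 1 of 4 adipocyte markers were lower, 1 rose and 1 fell of 5 cholangiocyte and of 4 neutrophil markers, and 0 of 6 lymphocyte, 4 pancreas and 1 erythroid markers passed. The part of these cells in the results was not tested, and in bulk liver fewer cells of a type and less RNA per cell cannot be told apart.

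The families of the genes were examined in lists chosen by known function. Among the relatives of Cyp2j9, of 5 measured Cyp2j genes 0 passed for VPA, for KO minus WT or for the interaction (29 probesets, 0.0816% of all), and 0, 1 and 0 were called without adjustment at the same limit, which 26.1%, 13.6% and 7.89% of all probesets passed. The neighbours of Cyp2j9 in the gene cluster on chromosome 4, Cyp2j6 and Cyp2j5, differed by 0.20 and 0.074 with VPA in KO mice, where Cyp2j9 differed by -0.33. Cross-hybridization between these close copies was not examined. In the list of P450s and hydrolases that make and remove epoxides of arachidonic acid, 0 of 7 passed for VPA, and in KO mice Cyp2c38, an arachidonic acid P450, rose by 1.15 (SE 0.17, adjusted p = 1.61e-05) and Ephx2, the soluble epoxide hydrolase, fell by 0.28 (SE 0.066, adjusted p = 0.00766). Cyp2c38 and the marker Alas2 above also stand in the study's list of genotype effects, drawn from these mice. The median of the 7 for KO minus WT was 0.058, against 0.0067 over all probesets, of which 2.94% passed for KO minus WT.

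Of 11 genes around Lnx2 and the Numb and Notch proteins, 2 rose with VPA, where 4.01% of all probesets did. Numb, the protein that Lnx2 binds, rose by 0.12 (SE 0.030, adjusted p = 0.0103) and the receptor Notch1 by 0.19 (SE 0.046, adjusted p = 0.00685). The VPA effect was 0.092 in KO, 0.21 in HZ and 0.047 in WT mice for Numb and 0.11 in KO, 0.37 in HZ and 0.096 in WT mice for Notch1, and neither passed the interaction test (adjusted p = 0.685 and 0.579). Lnx1, the closest relative of Lnx2 and also a ligase for Numb, was higher in KO mice, by 0.86 (SE 0.11, adjusted p = 3.03e-06), where Lnx2 was at -0.12 and did not pass. Lnx1 averaged 7.49 ± 0.23 in KO VPA and 7.36 ± 0.50 in KO saline mice, against 6.73 ± 0.25 in HZ VPA, 7.26 ± 0.33 in HZ saline, 6.53 ± 0.27 in WT VPA and 6.59 ± 0.35 in WT saline mice (SD, n = 8 each). The medians of the 11 were -0.017 for VPA and 0.050 for KO minus WT.

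For Zfp334, 316 other Zfp genes were measured, of which 11 were higher and 9 lower with VPA and 2 higher and 2 lower in KO mice, read against 8.61% and 2.94% of the whole array. Their median difference was -0.0024 for VPA and -0.0087 for KO minus WT. At an unadjusted p under 0.05, 12 of the 316 were called for the interaction, where 7.89% of all probesets were, and 0 after adjustment. Among those called for VPA were Zfp101, at 0.32 (SE 0.073, adjusted p = 0.00376), and Zfp281, at -0.22 (SE 0.056, adjusted p = 0.00935), and in KO mice Zfp36, which promotes the decay of mRNAs with AU-rich elements, was at 0.51 (SE 0.14, adjusted p = 0.0261). Of 6 genes of the TRIM28 corepressor of KRAB zinc finger proteins, 0 passed for VPA (3 at an unadjusted p under 0.05), KO minus WT (1) or the interaction (0). At that unadjusted limit, 26.1%, 13.6% and 7.89% of all probesets were called.

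For Aldh9a1, carnitine and aldehyde genes were examined. Across the array, 4.6% of the probesets were lower with VPA and 2.94% passed for KO minus WT. Of 8 genes of carnitine synthesis and use, 1 fell with VPA, Cpt1a, the carnitine palmitoyltransferase of the outer mitochondrial membrane, by 0.24 (SE 0.070, adjusted p = 0.0253). Bbox1, which makes carnitine from the product of Aldh9a1, differed by -0.027 with VPA (adjusted p = 0.774) and by -0.032 in KO mice (adjusted p = 0.913). In a list of 18 genes, the aldehyde dehydrogenases and the GABA transaminase Abat, Aldh3a2, which oxidizes fatty aldehydes, fell by 0.28 with VPA (SE 0.083, adjusted p = 0.0279). In KO mice Aldh1a1, which oxidizes retinaldehyde, fell by 0.34 (SE 0.070, adjusted p = 0.00201) and Aldh4a1, of proline breakdown, rose by 0.20 (SE 0.048, adjusted p = 0.0134). Aldh1a1 had a pattern of group means like that of Aldh9a1, with 13.07 ± 0.20 in KO VPA and 12.63 ± 0.28 in KO saline mice, against 13.08 ± 0.18 in HZ VPA, 13.31 ± 0.20 in HZ saline, 13.19 ± 0.20 in WT VPA and 13.20 ± 0.11 in WT saline mice (SD, n = 8 each). KO saline mice also had the lowest mean of other listed genes, not all of them aldehyde dehydrogenases. Among these were Ephx2 (11.69, against 11.89 in KO VPA mice), Cyp2c29 (13.24 against 13.44) and Aldh7a1 (12.31 against 12.49). For Aldh4a1 the lowest mean was in WT VPA mice (10.84). VPA minus saline in Aldh1a1 was 0.44 in KO, -0.22 in HZ and -0.017 in WT mice, and the interaction had an adjusted p of 0.0643. Its close copy Aldh1a7 differed by 0.48, -0.15 and -0.0064 in the same order (interaction adjusted p = 0.101), and the 2 genes may share probes. Of the 18, 8 were called for the interaction at an unadjusted p under 0.05 (7.89% of all probesets) and 0 after adjustment.

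For Fnbp4, 10 WW domain and formin-binding genes were measured. Fnbp1l, which links Cdc42 to actin assembly, rose by 0.23 with VPA (SE 0.063, adjusted p = 0.0196), and in KO mice 0 of 10 passed, and 1 was called without adjustment. The medians of the 10 were 0.020 for VPA and -0.013 for KO minus WT. Over the 7 family lists together, 5 of 65 genes were called for VPA, 5 for KO minus WT and 0 for the interaction, read against 8.61%, 2.94% and 0.0816% of all probesets. At an unadjusted p under 0.05 in limma, 21 of the 65 were called for VPA, 21 for KO minus WT and 16 for the interaction. Of all probesets, 26.1%, 13.6% and 7.89% were called at that limit.

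**Figure D5:**
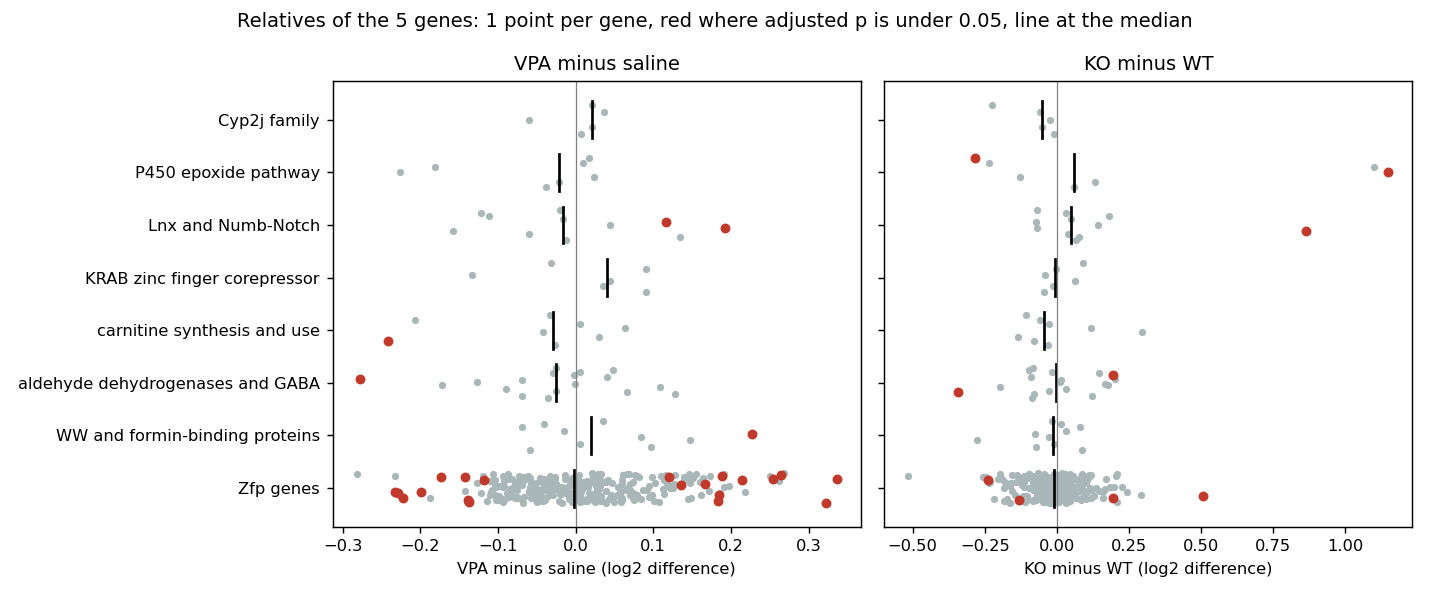
Log2 difference (x axis) for VPA minus saline, left, and KO minus WT, right, of every measured relative by list, with 1 point per gene, red where the adjusted p was under 0.05 and a line at the median of the list. Red points include Numb (0.12) and Notch1 (0.19) for VPA and Cyp2c38 (1.15) and Lnx1 (0.86) for KO, and the medians lie within 0.058 of 0.

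Of the 10 measured genes nearest to the 5 on each side, 1 passed a test, Mgst3, for KO minus WT. Of all probesets, 8.61% passed for VPA, 2.94% for KO minus WT and 0.0816% for the interaction. Mtif3 and Polr1d beside Lnx2 differed by -0.028 and -0.045 with VPA (adjusted p = 0.646 and 0.409). Zfp663 beside Zfp334 had VPA effects of -0.11 in KO, -0.097 in HZ and -0.11 in WT mice, nearly equal in the 3 genotypes (interaction adjusted p = 0.999). Nup160 and Agbl2 beside Fnbp4 differed by -0.0043 and -0.10 with VPA in KO mice, and neither passed a test. Beside Aldh9a1, Mgst3, a microsomal glutathione transferase, was higher in KO mice by 0.77 (SE 0.12, adjusted p = 3.15e-05), and Tmco1 did not pass in VPA minus saline, KO minus WT or the interaction. Lnx2 lies on the chromosome of Wfs1, 869 places away from it in the order of measured genes.

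By their values over the 48 mice, the genes most like Lnx2 were Pnrc1 (Pearson r 0.843), a coactivator of nuclear receptors, Dpp9 (0.792), a dipeptidyl peptidase, and Tab2 (0.782), an adaptor of the kinase TAK1. With the group means removed, Dpp9 was first (0.662). Aldh9a1 was most like 2510002D24Rik (0.809), Scrn3 (0.776) and Creg1 (0.747), and with the group means removed like Tprgl (0.785), Idh3b (0.769), a subunit of isocitrate dehydrogenase, and 2510002D24Rik (0.763). Fnbp4 was most like Usp31 (0.730), Gcnt2 (0.715) and Tgfbr1 (0.682), and with the group means removed like Snrnp70 (0.723), the U1 snRNP protein, Gcnt2 (0.718) and Usp31 (0.712). Cyp2j9 and Zfp334 had no gene as close, with a highest r of 0.642 (Il22ra1) and 0.630 (Cc2d1b). All of these compare mice that share groups and a normalization and are descriptions.

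In the series as a whole, array medians lay between 6.90 and 7.03 and arrays correlated by 0.971 to 0.994 across probesets. The lowest mean correlation with the other arrays was 0.981, in KO saline replicate 2. Leaving out any single array moved the VPA effect in KO mice no further than -0.41 to -0.24 for Cyp2j9, -0.049 to 0.034 for Lnx2, -0.28 to -0.19 for Zfp334, 0.17 to 0.23 for Aldh9a1 and -0.26 to -0.21 for Fnbp4. The 5 measured hepatocyte markers averaged 13.53 to 14.44, the level of liver. Nothing says which mice shared a litter, and p-values measure the spread between mice.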

How the data were processed

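Liver RNA of 48 male mice in 6 groups of 8 was hybridized to Affymetrix Mouse Gene 1.0 ST arrays. The deposited values are log2 expression made by the authors with RMA in Expression Console 1.1.2800.28061, which corrects background, applies quantile normalization across arrays and summarizes probes. The aligned build of the probes is not given in the sources used here. All 48 columns of values were used, with 0 left out, and no further normalization or filter was applied. Quantile normalization gives all arrays 1 distribution, so a shift of all genes would not be seen, and RMA compresses changes of dim probesets. Of 35556 probesets, 21789 had 1 gene symbol, 1621 several and 12146 none in the annotation used, and symbols were updated through Entrez identifiers.

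The fit gave each of the 6 groups a mean (limma 3.58.1, R 4.3.3, lmFit and eBayes, 42 residual degrees of freedom), and two-sided p-values were adjusted by Benjamini-Hochberg over all probesets, with a threshold of 0.05. The two-way F was taken without moderation. The number of arrays limits the precision. The 5 genes, the lists of relatives, the clock genes and the markers were chosen with earlier results of these data known. Named were the 5 genes, relatives that passed a test or are close to them, the nearest measured gene on each side, the 3 genes most correlated with each, and Ppard, Nfil3 and Nr1d2. A gene with several probesets was taken at the one with the highest mean. Fits were tested on simulated data. Alternatives were array weights, a trended robust eBayes, no moderation, median centring, probesets with 1 symbol, a group mean of at least 5, 1 probeset per gene, all probesets of a gene, a replicate block, a threshold of 0.01, the clock index, only the arrays compared, leaving out each array and, within a genotype, medians and means of unlogged values. Promoter windows were searched in Python 3.11.15, and figures drawn with matplotlib 3.10.9. Replicate numbers were not taken to pair mice, since no source says so.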

Additional observations from a re-analysis of the deposited data

Results flagged for a closer look

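Of the 30 groups formed by the 5 genes and 6 groups of mice, 1 held a mouse far from the others by Dixon's test at its 95% critical value. Fnbp4 in HZ saline replicate 4 had a log2 value of 9.06, and the next highest HZ saline mouse had 8.90. The gap was 0.60 of the range of the group. About 1 in 20 groups would be picked out by chance. Without any one array, the VPA effect on Fnbp4 in HZ mice stayed between -0.041 and 0.0053, and the averaged effect between -0.097 and -0.077.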

How the results depend on the processing

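The call of Lnx2 for VPA held in 9 of 11 other settings and in every fit without 1 array (0.24 to 0.27). It was lost with the clock index (0.17) and with KO and WT mice only (0.20), where 0 of the 5 genes passed for VPA. The average over KO and WT mice leaves out HZ mice (0.38) and gives KO mice (-0.0047) more weight, so it is smaller. Neither setting keeps the averaged effect orthogonal to the interaction that chose the genes. The cause of the lost calls was otherwise not tested. Fnbp4 joined Lnx2, making 2 genes, with array weights, no moderation, 1-symbol probesets, a group mean of at least 5, 1 probeset per gene and the replicate block (adjusted p from 0.0393 to 0.0485). The count was 1 to 2 without 1 array, with 2 without WT saline replicates 2 and 7, KO saline 6 and 7, WT VPA 4 and 8, HZ VPA 3, or KO VPA 6 and 7 (adjusted p of Fnbp4 from 0.0326 to 0.0470). For KO minus WT, 1 gene, Zfp334, passed with 1-symbol probesets, a group mean of at least 5 and 1 probeset per gene (adjusted p from 0.0440 to 0.0496), where fewer probesets were tested. The count was 0 to 1 without 1 array, with 1 without WT saline replicate 1, HZ saline 4, KO saline 3 and 7, WT VPA 7, or KO VPA 2 and 7 (adjusted p of Zfp334 from 0.0132 to 0.04998). For KO minus HZ, 1 gene, Cyp2j9, passed with the clock index (0.39, adjusted p = 0.0489). With that covariate the averaged differences are not orthogonal to the interaction that chose the genes, so this call carries the choice. Counts stayed at 0 for HZ minus WT.

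With the clock index, the VPA effects in HZ mice were -0.36 for Cyp2j9, 0.27 for Zfp334 and 0.087 for Fnbp4, and in WT mice 0.057 for Cyp2j9. The averaged VPA differences of Cyp2j9 (-0.26) and Zfp334 (0.10) and the HZ minus WT difference of Cyp2j9 (0.14) changed sign with it, all short of the threshold in both fits. Zfp334 for VPA was 0.0046 after median centring. Lnx2 in KO minus HZ was 0.0012 with array weights, 0.0075 with the clock index and -0.028 to 0.014 without 1 array.

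Over the 7 lists, 5 relatives were called for VPA, against 11 with array weights, 1 at 0.01, 0 with the clock index, 0 with KO and WT mice only and 5 to 8 without 1 array (8 without WT VPA replicate 7). For KO minus WT the 5 became 2 with the clock index. For the interaction 1 gene, Aldh1a1, was called with 1-symbol probesets (adjusted p = 0.0443), 1 probeset per gene and the replicate block (adjusted p = 0.0475), and 0 to 2 without 1 array (2 without HZ saline replicate 1, 1 without KO saline replicate 2 or 7). Of the Zfp genes, 20 were called for VPA, against 34 with array weights, 6 at 0.01, 0 with the clock index, 0 with KO and WT mice only and 13 to 36 without 1 array (35 without WT saline replicate 2, 36 without KO saline 2, 13 without KO VPA 3). For KO minus WT the 4 became 1 at 0.01, 0 with the clock index, 1 with KO and WT mice only and 2 to 7 without 1 array (7 without WT saline replicate 1, 2 without KO VPA 5).

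Mice with the same replicate number correlated by 0.055 on average in their deviations, over 0.1 in 53 of 120 pairs, and the closest array had the same number for 11 of 48. The replicate block changed the calls of Fnbp4 for VPA and Aldh1a1 for the interaction named above and no other call of the 5 genes. Signal over background was not analysed here, and the number of arrays limits the precision.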
